A study of Mus musculus with 24 samples.

Results

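The genes described here are the receptor chains that bind interferons (Ifnar1, Ifnar2, Ifngr1, Ifngr2 and Il10rb), with kinases and signal carriers. The kinases, Jak1 and Tyk2, sit on some of those chains, and the signal carriers are Stat2 and Stat3. All these genes were chosen by gene symbol as parts of the machinery that a cell needs to hear an interferon. They are 9 of 22911 named genes on the array, with 14 probes. All 9 passed the filter on dim probes, as did 14426 genes in all. The cells were ID8, a mouse ovarian cancer line derived from surface epithelium and used here as a culture. For 3 h they received interferon (IFN) epsilon, a recombinant mouse protein, at doses of 10, 100 and 1000 IU/ml, recombinant mouse IFN beta at the same doses, or PBS as the vehicle (called untreated). Samples were made on 3 separate dates, and each group had 1 sample per date. Of 24 arrays 2 were left out because their labels say excluded, both from date 3 and both labelled IFN beta, 1 at 10 and 1 at 100 IU/ml. These groups therefore had 2 samples here and the other 5 had 3, which gave 19 samples on 22 arrays.

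Type I interferons, to which IFN epsilon and IFN beta both belong, bind a surface receptor made of IFNAR1 and IFNAR2. Tyk2 is bound to the IFNAR1 chain and Jak1 to the IFNAR2 chain, and when the chains meet the kinases phosphorylate STAT proteins. STAT2 then pairs with a partner STAT and IRF9 in the complex ISGF3, which enters the nucleus and binds the interferon-stimulated response element (ISRE). IFN gamma uses IFNGR1 and IFNGR2 instead, and dimers of activated STATs bind another element, the gamma-activated site (GAS). In the female reproductive tract IFN epsilon is made by the epithelium without infection, so epithelial cells are among those that meet it.

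The promoter of Stat2 and those of both type I receptor chains are shown because the levels of these genes behaved differently below. Each sequence runs 5′ to 3′ on the plus strand from 250 bases before to 50 bases after the start site, from RefSeq on GRCm38.p6, and capitals mark a match to one of the motifs searched. The Stat2 window is chr10:128270248-128270547, the Ifnar1 window chr16:91484965-91485264 and the Ifnar2 window chr16:91372533-91372832.
Stat2: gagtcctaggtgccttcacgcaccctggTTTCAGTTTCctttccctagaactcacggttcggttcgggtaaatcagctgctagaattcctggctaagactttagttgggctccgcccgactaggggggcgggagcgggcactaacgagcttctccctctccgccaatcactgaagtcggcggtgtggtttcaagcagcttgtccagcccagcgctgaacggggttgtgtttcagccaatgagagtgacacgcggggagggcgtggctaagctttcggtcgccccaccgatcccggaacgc
Ifnar1: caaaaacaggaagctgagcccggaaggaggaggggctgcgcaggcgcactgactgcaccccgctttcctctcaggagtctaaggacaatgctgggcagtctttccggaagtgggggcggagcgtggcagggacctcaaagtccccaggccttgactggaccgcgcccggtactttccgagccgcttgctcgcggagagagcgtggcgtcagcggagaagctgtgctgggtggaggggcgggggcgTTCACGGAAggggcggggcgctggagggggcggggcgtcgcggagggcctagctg
Ifnar2: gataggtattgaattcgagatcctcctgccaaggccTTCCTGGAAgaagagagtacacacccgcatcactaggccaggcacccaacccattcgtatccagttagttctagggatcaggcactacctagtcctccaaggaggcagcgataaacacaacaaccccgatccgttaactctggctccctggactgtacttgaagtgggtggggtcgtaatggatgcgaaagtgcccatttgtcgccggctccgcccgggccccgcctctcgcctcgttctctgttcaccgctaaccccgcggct

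The ISRE was searched as GAAA, any 2 bases and GAAA again, and the GAS as TTCNNNGAA, on both strands. In the Stat2 promoter the capitals are an ISRE match on the minus strand, TTTCAGTTTC as read on the plus strand, at positions -222 to -213 from the start site. Stat2 was the only one of the 8 members with a promoter sequence that held an ISRE match, and 3.44% of 32851 promoters held one. The capitals in the Ifnar1 promoter (TTCACGGAA, -5 to 4) and in the Ifnar2 promoter (TTCCTGGAA, -214 to -206) are GAS matches, which 8.3% of promoters held. None of the promoters of Ifngr1, Ifngr2, Jak1, Tyk2 and Stat3 held either motif in this window. The motifs do not overlap here, and a match in letters is a description of the sequence.

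In the RefSeq gene order Ifnar2, Il10rb, Ifnar1 and Ifngr2 stand in a row on chromosome 16 with no other protein-coding gene between them. Stat2 and Ifngr1 lie on chromosome 10, Jak1 on 4, Tyk2 on 9 and Stat3 on 11.

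Levels are log2 of the background-subtracted intensity minus the array's 75th percentile, so a level of 0 stands at that percentile and 1 unit is a 2-fold difference. Probes differ in how strongly they bind, so levels are compared between samples of a probe and not between genes. Groups were compared with limma in 1 fit over all 7 groups and all 14426 genes, and a call means a p under 0.05 after Benjamini-Hochberg adjustment over all genes. Because the replicate number marks the date, the value with the date as a block is given where it changes a call. All treatments share the same 3 untreated samples, so comparisons with untreated cells are not independent of each other. In these bulk samples a change in the RNA per cell and a change in the number of cells that carry it cannot be told apart.

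Arrays had a 75th percentile of intensity between 643.5 and 1221, and it was lower on date 3 (742 ± 67, SD of 8 arrays) than on date 1 (1117 ± 98) and date 2 (1073 ± 58). Of 12 ovarian surface and mesothelial markers, 10 were well above background on all 6 untreated arrays, with Pax8 on 0 and Lhx9 on 2. Ptprc and Lyz2, markers of leukocytes, were on 0 of 22 arrays, while Cd68, Itgam, Csf1r and Cd3e were on 22 of 22. The summed linear level of the 10 leukocyte markers was 2.92 to 4.52 times the array's 75th percentile in treated samples and 3.65 to 3.95 times in untreated samples, so the ranges overlapped. Of 5 endothelial markers Cdh5 and Tie1 were on 0 arrays and Tek on 1, while Pecam1 was on 21 and Kdr on 22. The 5 summed to 0.138 to 0.868 in treated and 0.174 to 0.670 in untreated samples. Of 7 fibroblast and adipocyte markers Col1a1, Col1a2, Pdgfra and Dcn were on 22 arrays, Thy1 on 10 and Adipoq and Plin1 on 1 each. Their sums were 90.6 to 147 in treated and 111 to 139 in untreated samples. With IFN beta at 100 IU/ml (2 samples, none of date 3) this sum was 141 to 147, above all untreated samples. The ovarian surface and mesothelial sum was 289 to 319 in that group, below the 330 to 442 of untreated samples. In both sums the other treated groups overlapped untreated samples. Untreated samples include date 3, and the part that the date plays in these sums was not tested.

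Untreated ID8 cells carried message for all 9 genes. The probe that stood for each of the 9 genes was well above background on 22 of 22 arrays, untreated ones included. Across all 14 probes the only array below that mark was 1 of IFN epsilon at 10 IU/ml for the dimmest Ifnar1 probe. The members differed in whether a response to interferon was called. Stat2 rose at 1000 IU/ml of both interferons and at 100 IU/ml of IFN epsilon, while the other 8 genes together made 48 comparisons with untreated cells, of which 0 were called. Over all genes these 6 comparisons called between 0% and 2.31%, so 0 calls among the other 8 genes are near that share.

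**Figure D1:**
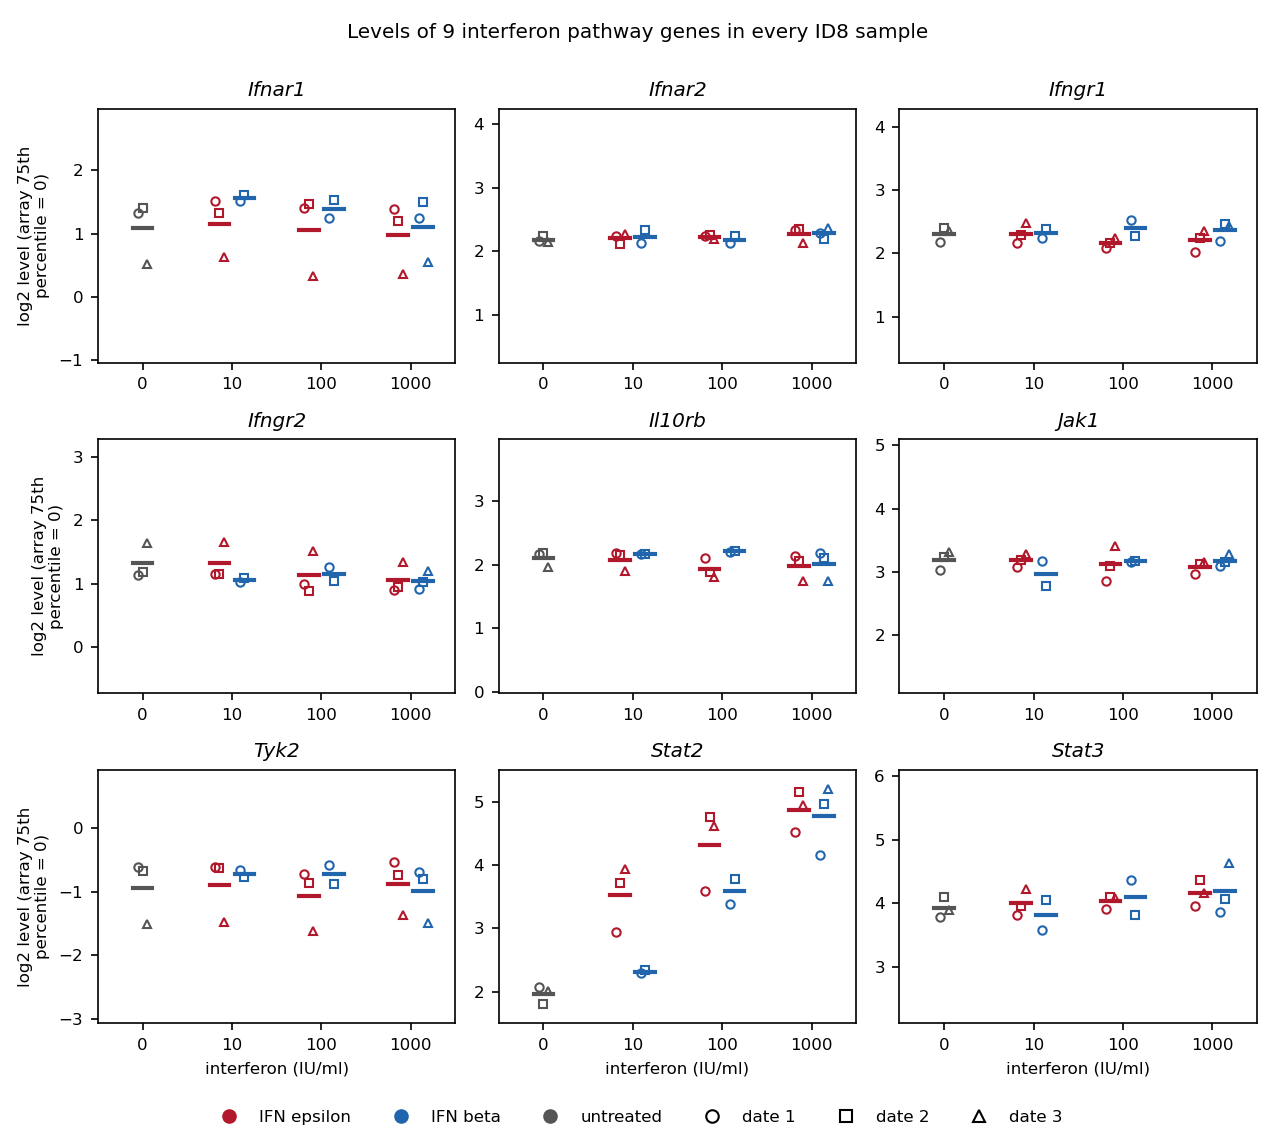
Log2 level (array 75th percentile = 0) of each of the 9 genes in every sample, by interferon dose in IU/ml at equal spacing, with untreated cells at 0. Points are samples, symbols give the date, short lines are group means and every panel spans 4 log2 units. The Stat2 mean is 4.87 at 1000 IU/ml IFN epsilon and 1.97 in untreated cells, and Ifnar1 and Tyk2 are lower on date 3 in every group that has it.

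Stat2, a STAT used mainly by type I and type III interferons, was the only member called against untreated cells. At 1000 IU/ml IFN epsilon its log2 levels were 4.53, 5.15 and 4.95 on dates 1, 2 and 3, against 2.08, 1.80 and 2.01 in untreated cells. All treated samples lay above all untreated ones, and the gap was several times the spread within either group. The difference was 2.91 ± 0.33 (log2 fold change ± SE, n = 3 against 3, limma adjusted p = 8.51e-05), a 7.5-fold higher level, in a comparison that called 2.31% of genes. At 1000 IU/ml IFN beta the levels were 4.16, 4.97 and 5.20, again above every untreated sample. This was 2.81 ± 0.33 over untreated cells (limma adjusted p = 0.000175), or 7.02-fold, with 1.59% of genes called. All treated samples above all untreated ones was a pattern of 6.19% of genes for IFN epsilon and 5.4% for IFN beta at this dose. With the left-out arrays put back, limma still called Stat2 for IFN epsilon (adjusted p = 0.042) and no longer for IFN beta (0.107).

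At 100 IU/ml Stat2 was higher than in untreated cells with both interferons, and passed the test without the block with IFN epsilon. IFN epsilon samples were at 3.59, 4.76 and 4.61, a rise of 2.36 ± 0.33 over untreated cells (limma adjusted p = 0.00116), where 1.05% of genes were called. IFN beta samples, of dates 1 and 2, were at 3.39 and 3.79. They too lay above all untreated samples, but the difference of 1.62 ± 0.37 (n = 2 against 3) did not pass without the block (limma adjusted p = 0.349), in a comparison that called 0.111% of genes. With the date as a block it was 1.74 with an adjusted p of 0.0136, and 0.291% of genes were called. Samples above all untreated ones were seen for 3.28% of genes with IFN epsilon and 4.2% with IFN beta. With the left-out arrays put back, the IFN epsilon call was lost (adjusted p = 0.336) and the IFN beta difference was 2.11, not called.

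The lowest dose separated the interferons more in level than in any call. Stat2 was at 2.94, 3.71 and 3.94 with IFN epsilon at 10 IU/ml, all above untreated cells by an average of 1.56 ± 0.33. Limma gave this an adjusted p of 0.122 without the block and of 0.00588 with it, and the fits called 0.201% and 0.499% of genes. Without the date 1 sample of that group, which was the lowest, the difference was 1.86 (adjusted p = 0.049). With IFN beta at 10 IU/ml Stat2 was at 2.29 and 2.35, barely over the highest untreated sample at 2.08. The difference of 0.35 ± 0.37 did not pass with or without the block (adjusted p 1.00 in both fits), and that comparison called 0% of genes. Samples above all untreated ones were seen for 1.78% of genes with IFN epsilon and 5.05% with IFN beta at this dose. With the left-out array of date 3 put back, the IFN beta difference was 1.22, again not called.

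**Figure D2:**
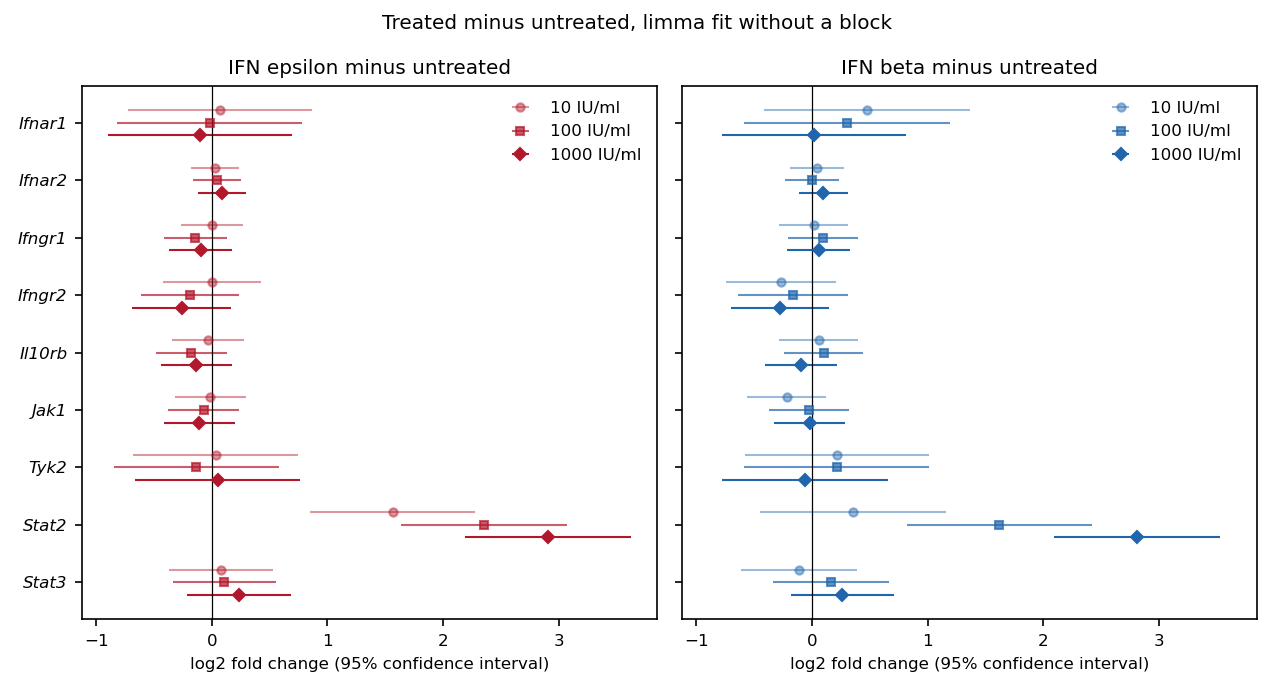
Log2 fold change over untreated cells with its 95% confidence interval for the 9 genes, IFN epsilon in the left panel and IFN beta in the right, with the doses of 10, 100 and 1000 IU/ml drawn from top to bottom within each gene. In this fit without the block Stat2 leaves 0 in both panels, and the intervals of the other 8 genes all include 0.

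The interferons were set against each other at equal doses, a comparison in which the untreated samples play no part. At 10 IU/ml every IFN epsilon sample had a higher Stat2 level than either IFN beta sample, by 1.21 ± 0.37 (95% interval 0.41 to 2.01). The unadjusted p was 0.00592, and the limma adjusted p was 1.00 without the block and 0.377 with it, where 0.097% and 0.118% of genes were called. Samples ordered in this way were seen for 2.84% of genes. With the left-out array put back the difference was 0.34, so its size rests on that array being left out. At 100 IU/ml the difference was 0.74, with an interval from -0.07 to 1.54 and overlapping samples, where 0.0901% of genes were called. At 1000 IU/ml it was 0.10, with an interval from -0.62 to 0.81, and 0% of genes were called. The missed calls do not show that the interferons act alike on Stat2, since the interval at the highest dose still holds differences of over 0.6 log2 units to either side.

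Read down the doses, the Stat2 group means were ordered IFN epsilon 1000 (4.87), IFN beta 1000 (4.78), IFN epsilon 100 (4.32), IFN beta 100 (3.59), IFN epsilon 10 (3.53), IFN beta 10 (2.32) and untreated (1.97). None of the 6 steps between neighbours in this order was called. IFN epsilon at 10 IU/ml and IFN beta at 100 IU/ml differed by -0.06, with an interval from -0.86 to 0.75. Both the order and this difference hold for the samples kept. Stat2 was at 4.92 and 5.06 on the left-out arrays labelled IFN beta at 10 and 100 IU/ml. Samples of neighbouring groups overlapped in the upper 4 steps and did not overlap in the lower 2.

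Within IFN beta, Stat2 was higher at 1000 than at 10 IU/ml by 2.46 ± 0.37 (n = 3 against 2, limma adjusted p = 0.00239), and 1.13% of genes were called. This call was lost when only these groups were fitted (adjusted p = 0.159) and with the left-out array put back, where the difference was 1.59. Within IFN epsilon the same step was 1.34 ± 0.33, which missed the threshold without the block (limma adjusted p = 0.0772) and passed with it (0.0059). Those fits called 1.4% and 4.55% of genes. The step was positive on all 3 dates for IFN epsilon, between 1.01 and 1.58. The difference between the dose steps of the interferons was -1.11 (unadjusted p = 0.0432, limma adjusted p = 1.00), in an interaction that called 0% of genes.

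The size of the Stat2 response differed by date. On date 1, Stat2 was 0.86, 1.51 and 2.44 above that date's untreated sample at 10, 100 and 1000 IU/ml IFN epsilon. On date 2 these differences were 1.91, 2.95 and 3.35, and on date 3 they were 1.93, 2.60 and 2.94. IFN beta at 1000 IU/ml gave 2.08 on date 1, 3.17 on date 2 and 3.19 on date 3. Date 1 had the smallest difference at each of these doses, while the 3 untreated samples lay within 0.28 log2 units of each other. The arrays of an untreated sample differed from each other by -0.30 to -0.09 for Stat2.

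**Figure D3:**
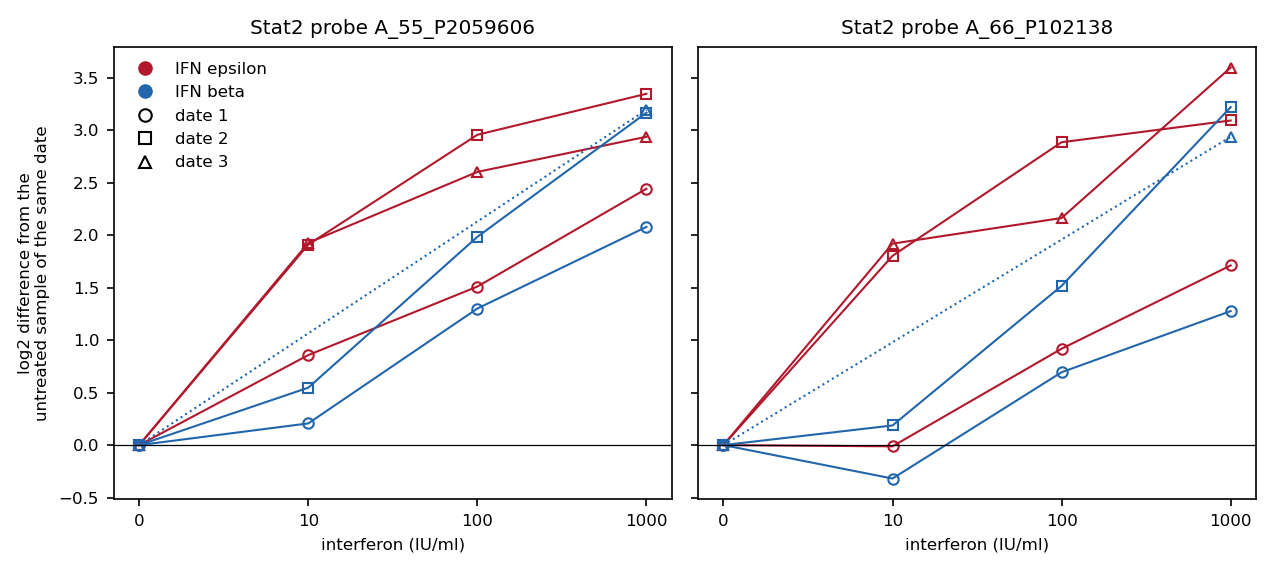
Stat2 log2 difference from the untreated sample of the same date, by dose in IU/ml at equal spacing, for both Stat2 probes, with a line per date and interferon and a dotted line where the middle doses of date 3 were left out. The left probe lies above 0 at every dose and date, the right probe is at or under 0 for both interferons at 10 IU/ml on date 1, and both reach their highest values at 1000 IU/ml.

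A second Stat2 probe, dimmer but well above background on 22 of 22 arrays, gave the same order of doses with a wider error. On it Stat2 rose by 2.80 ± 0.45 at 1000 IU/ml IFN epsilon (limma adjusted p = 0.00189, adjusted over all probes kept) and by 2.48 ± 0.45 at 1000 IU/ml IFN beta (0.00724). At 100 IU/ml IFN epsilon it differed by 1.99 ± 0.45, which narrowly missed the threshold (limma adjusted p = 0.0527). At 10 IU/ml IFN epsilon its levels were -4.16, -2.93 and -2.84, against -4.15, -4.73 and -4.76 in untreated cells, so the date 1 sample did not rise on this probe. IFN beta at 10 IU/ml gave -4.47 and -4.54 on it, within the untreated range.

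Stat3, which carries signals of the IL-6 and IL-10 families as well as some interferon signal, was not called at any dose. Its levels were 3.96, 4.37 and 4.16 at 1000 IU/ml IFN epsilon, against 3.78, 4.10 and 3.90 in untreated cells. They were 3.86, 4.07 and 4.63 at 1000 IU/ml IFN beta. The means differed from untreated cells by 0.24 ± 0.21 and 0.26 ± 0.21, and treated and untreated samples overlapped. Within each date Stat3 was higher at 1000 IU/ml IFN epsilon, by 0.18 to 0.27. At that dose of IFN beta it differed by -0.03 to 0.74. With the date as a block it was not called either. A second Stat3 probe gave 0.28 and 0.32 at these doses, also not called. Across the 6 treatments the differences on the main probe ran between -0.11 and 0.26.

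Ifnar2, the receptor chain that carries Jak1, had the narrowest range of the 9 genes on the probes that stood for them. All 19 samples lay between 2.12 and 2.37, and no group mean was further than 0.10 from that of untreated cells. At 1000 IU/ml IFN epsilon its levels were 2.33, 2.35 and 2.14, and with IFN beta at that dose 2.28, 2.20 and 2.37, against 2.16, 2.24 and 2.15 in untreated cells. Its 95% intervals reached at most 0.31 log2 units from 0. The second Ifnar2 probe differed from untreated cells by between -0.05 and 0.14, with no call.

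Ifnar1, the signalling partner of Ifnar2, was no more responsive but varied by date. At 1000 IU/ml IFN epsilon its levels were 1.39, 1.19 and 0.36 on dates 1 to 3, and with IFN beta at that dose 1.25, 1.50 and 0.56, against 1.32, 1.41 and 0.52 in untreated cells. The date 3 sample was the lowest of every group that had one. IFN beta at 10 IU/ml, which had no date 3 sample here, differed from untreated cells by 0.47 without the block and by 0.18 with it. None of the 3 Ifnar1 probes gave a call in any comparison with untreated cells.

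The chains of the IFN gamma receptor and Il10rb, the chain shared by the receptors of IL-10 relatives and IFN lambda, were also not called at any dose. Ifngr1, which binds IFN gamma, differed from untreated cells by between -0.14 and 0.10. Its partner Ifngr2 was at 0.90, 0.95 and 1.34 at 1000 IU/ml IFN epsilon, against 1.14, 1.19 and 1.64 in untreated cells. Within each date it was lower with treatment, by -0.30 to -0.24 for IFN epsilon and by -0.44 to -0.16 for IFN beta at 1000 IU/ml. With the block limma gave these differences of -0.26 and -0.28 adjusted p of 0.0664 and 0.0895, and the blocked fits called 8.11% and 3.45% of genes. Il10rb differed by between -0.18 and 0.10.

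The kinases moved no more than the receptor chains. Jak1, which serves all interferon receptors, was at 2.97, 3.13 and 3.15 at 1000 IU/ml IFN epsilon and 3.09, 3.16 and 3.28 at that dose of IFN beta, against 3.03, 3.23 and 3.32 in untreated cells. Its differences from untreated cells lay between -0.22 and -0.01. Tyk2, the kinase bound to IFNAR1, was at -0.53, -0.73 and -1.37 at 1000 IU/ml IFN epsilon. It was at -0.68, -0.80 and -1.49 at that dose of IFN beta, against -0.61, -0.68 and -1.50 in untreated cells. The groups overlapped throughout, and differences ran between -0.14 and 0.21.

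Over the 48 comparisons of the 8 genes other than Stat2, log2 fold changes without the block lay between -0.28 and 0.47. In that limma fit 0 had an unadjusted p under 0.05 (the lowest was 0.187). With the date as a block the lowest limma adjusted p was 0.0664, that of Ifngr2 at 1000 IU/ml IFN epsilon given above. The median over the 8 genes was -0.10 at 1000 IU/ml IFN epsilon and -0.00 at that dose of IFN beta. The widest 95% intervals, those of the main Ifnar1 probe, allowed anything from a 0.536-fold to a 2.58-fold level. With the date as a block, the bounds over the 8 genes ran from 0.707-fold to 1.62-fold. The intervals of the main Ifnar2 probe were much narrower, so what the arrays could detect differed by probe. On a second probe of each gene the SE at 1000 IU/ml IFN epsilon was alike, 0.157 for Ifnar1 and 0.162 for Ifnar2.

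Several of these 8 genes differed more between dates than between treated and untreated cells. In a fit over all groups with date as a term, date 3 was lower than the mean of dates 1 and 2 by -0.89 ± 0.07 for Ifnar1 (limma adjusted p = 3.88e-07) and by -0.80 ± 0.04 for Tyk2 (1.32e-08). Il10rb was lower by -0.29, and Ifngr2 was higher by 0.44. Jak1 and Ifngr1 were higher by 0.20 and 0.15. In total 6 of 9 members were called, where 59.7% of all genes were, so such a shift was common on this date, which also had the dimmer arrays. The part that array brightness plays was not tested. The other Ifnar1 probes shifted by -0.26 and -0.41, and the second Ifnar2 probe by -0.32 while the main one shifted by -0.02, so probes of a gene disagreed on the size.

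**Figure D4:**
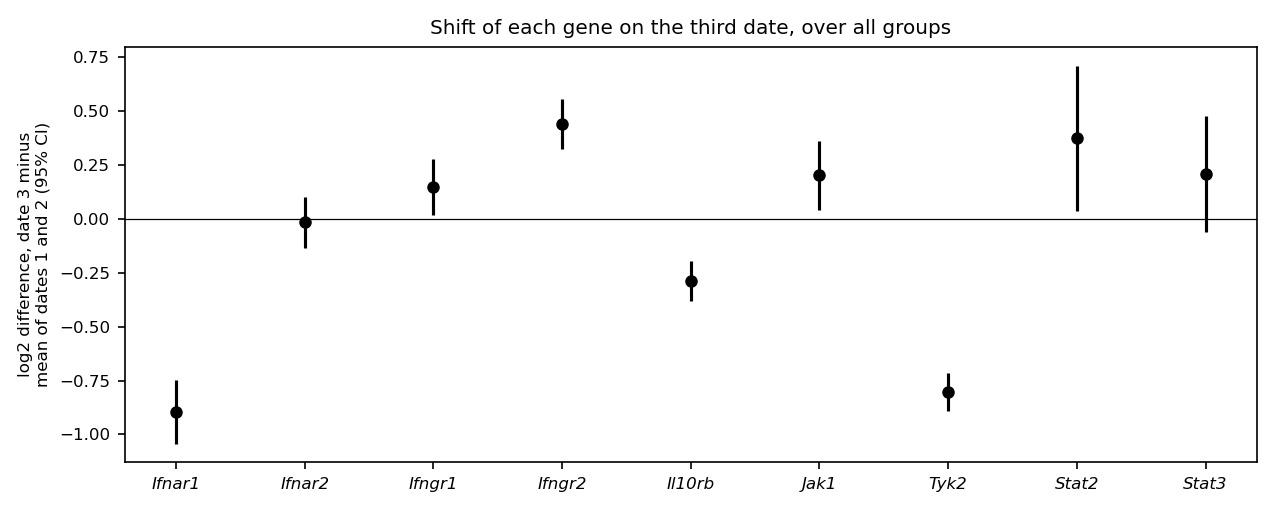
Log2 difference of date 3 from the mean of dates 1 and 2, over all groups, with its 95% confidence interval, for each of the 9 genes. Ifnar1 and Tyk2 are lower by -0.89 and -0.80, Ifngr2 is higher by 0.44, and the interval of Ifnar2 includes 0.

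The wider pathway, a list of 88 genes of which 67 were tested, was compared with untreated cells in the same fit. With the highest dose of IFN epsilon 4 of 67 rose (5.97%), where 2.24% of all genes rose. With that dose of IFN beta 3 rose (4.48%), where 1.58% of all genes rose. None of the 67 fell at any dose, and few of all genes did. At 1000 IU/ml IFN epsilon 333 of 14426 genes were called, 323 of them higher. With that dose of IFN beta 230 were called, 228 of them higher. At 10 and 100 IU/ml IFN epsilon 3 rose at each dose, against 0.201% and 1.05% of all genes. With IFN beta 0 rose at 10 IU/ml, where 0% of all genes did, and 1 at 100 IU/ml, against 0.111% of all genes. The list's median log2 fold change was -0.00 at 1000 IU/ml IFN epsilon and 0.06 at that dose of IFN beta, beside medians of -0.05 and -0.04 over all 14426 genes.

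Of 7 tested genes that comprise Irf9 and other JAK and STAT genes, 2 rose at 1000 IU/ml of either interferon, where 2.24% of all genes rose with IFN epsilon and 1.58% with IFN beta. Irf9, the DNA-binding partner of STAT2 in ISGF3, was at 3.56, 3.73 and 3.65 at 1000 IU/ml IFN epsilon, against 2.08, 1.51 and 2.43 in untreated cells. It rose by 1.64 ± 0.19 (limma adjusted p = 0.000104), and by 1.58 ± 0.19 at that dose of IFN beta (0.000229). At 10 IU/ml IFN epsilon it had already risen by 1.23 ± 0.19 (0.0104). With IFN beta at 10 IU/ml it differed by 0.42 ± 0.22 (n = 2 against 3) and was not called. The direct difference between the interferons at 10 IU/ml was 0.81 ± 0.22, also not called (limma adjusted p = 0.877). That comparison called 0.097% of genes.

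Of 17 negative regulators of the pathway 1 rose at 1000 IU/ml of either interferon, where 2.24% and 1.58% of all genes rose. This was Usp18, the protease that sits on IFNAR2 and dampens repeated signalling. It was at 4.85, 5.28 and 5.31 at 1000 IU/ml IFN epsilon, against -0.48, -1.13 and 0.16 in untreated cells. Of 10 genes of receptor turnover 1 rose at 1000 IU/ml IFN epsilon, where 2.24% of all genes rose. This was Prkd2, a kinase that in human cells promotes the removal of IFNAR1 from the surface. Prkd2 rose by 0.72 ± 0.13 at 1000 IU/ml IFN epsilon (limma adjusted p = 0.00491), and it differed by 0.50 ± 0.13 at that dose of IFN beta, which was not called (0.0897). The direct difference between the interferons at that dose was 0.22 ± 0.13, with overlapping samples and no call.

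None of 19 other cytokine receptor chains that use JAK kinases, and none of 9 genes of nuclear import and coactivation, was called in a comparison with untreated cells. With at most 2.31% of all genes called in any of these comparisons, 0 calls in lists of this size are near that share. Among the interferon genes themselves 18 had a probe, and 10 of these probes were below the background mark on all 22 arrays, that of Ifne included. Ifnb1 was above it on 3 of 22 and Ifna5 on 8, and the highest count was 14, for Ifna9 and Ifnl3. The 5 interferon genes tested gave 0 calls against untreated cells. Members of the Ifna family are near-identical, so their probes cannot be assigned with certainty.

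The genes whose levels were most like those of Stat2 were Helz2, a helicase, Trim12a, a member of the Trim5 family, and Ddx58, which encodes the RNA sensor RIG-I. Their distance from Stat2, the root mean square difference of centred log2 levels over 19 samples, was 0.273, 0.307 and 0.320, the smallest among 14425 genes compared. Helz2 was higher than in untreated cells at 1000 IU/ml IFN epsilon and IFN beta by 2.88 and 2.86, Trim12a by 2.49 and 2.26, and Ddx58 by 2.74 and 2.54. Trim12a has a close relative, Trim12c, that may share its probe signal.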

How the data were processed

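RNA of ID8 cells was measured on 24 single-colour Agilent arrays (3 slides of 8). Per the file headers, the scanner software Agilent Feature Extraction 11.0.1.1 made the deposited intensity values, background-subtracted and not normalized between arrays. The authors also deposited log2 values as a table, used as an alternative. For it limma 3.42.0 and R 3.6.1 are named in the submitters' processing notes, and how it was made beyond that is not given in the sources used here.

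Levels are the log2 processed signal less the 75th percentile of its array. Outlier spots (79 to 280 per array) were left out, and spots of a probe were averaged. The 2 arrays of each untreated sample were averaged. RefSeq accessions gave gene names to 32994 of 56605 probes. Probes entered when some group had 2 or more samples well above background, and a gene took the values of its brightest probe by mean level. Limma 3.58.1 in R 4.3.3 (functions lmFit and eBayes, without a block, with 12 residual degrees of freedom) tested 14426 genes in 12 comparisons with Benjamini-Hochberg adjustment and a threshold of 0.05, and the script was tested on simulated data. The number of arrays limits the precision: the median distance from a log2 fold change to its 95% bound was 0.453 for 3 against 3 samples and 0.507 for 3 against 2.

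The design text says that replicates were made on separate dates, so replicate numbers pair samples. Deviations from group means correlated with a median r of 0.47 over 52 pairs of the same number and -0.21 over 102 others. Motifs and plots used Python 3.11.15, matplotlib 3.10.9, pandas 2.3.3 and numpy 2.4.6, and tables and blocks data.table (1.17.8) and statmod 1.5.0. The genes and lists were chosen with earlier results of these data known. Text names all members, the pathway genes called against untreated cells (1 of them is not reported here), and the 3 genes nearest to Stat2. Alternatives covered scaling, background correction, filter, probe choice, blocks, samples and single replicates. The scanner files held no mean signal, so normexp used median signals.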

Additional observations from a re-analysis of the deposited data

Results flagged for a closer look

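The 2 arrays that the submitters left out, because interferon-stimulated genes were induced unusually strongly on them, carried a high Stat2 level. Stat2 was at 4.92 on the array labelled IFN beta at 10 IU/ml and at 5.06 on the array labelled IFN beta at 100 IU/ml, both of date 3, against 2.08 in the highest untreated sample. These results stand out because the arrays enter the comparisons above only where they are put back, and lie over every control. They were 2.91 and 3.05 over the untreated sample of the same date, close to the 3.19 of IFN beta at 1000 IU/ml on that date. Stat3 was at 4.44 on both arrays, against 4.10 in the highest untreated sample, a gap just wider than the range of the untreated samples. The arrays were left out by the size of the response itself, so the groups that lost them describe the samples kept. What happened to these 2 arrays was not tested.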

How the results depend on the processing

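Under 34 other settings, which gave 240 values for Stat2 and 1920 for the other 8 members, 0 of the 1920 were called, and 252 of them had another sign than in the fit reported. Stat2 changed sign in 3 of 240, all for the uncalled difference between the interferons at 1000 IU/ml. Of 252 alternative counts of members called 13 differed, each through Stat2. For 1000 against 10 IU/ml IFN epsilon the count was 1, in place of 0, under quantile normalization, normexp with quantile normalization, the submitters' table and the replicate block. For IFN epsilon at 10 IU/ml against untreated cells it was 1, in place of 0, under normexp with quantile normalization, the replicate block and without the date 1 sample of that group (adjusted p = 0.049, with a range of 0.049 to 0.77 over single replicates left out). Leaving out single replicates gave counts between 0 and 1 for that comparison and moved no other count. For IFN beta at 100 IU/ml it was 1, in place of 0, with the replicate block, and pairing changed no other call of a member. For 1000 against 10 IU/ml IFN beta it was 0, in place of 1, when only these groups were fitted, with all 24 arrays, and with all 24 arrays and the replicate block (this setting was chosen after seeing the data). With all 24 arrays the count was also 0 for IFN beta at 1000 IU/ml (adjusted p = 0.107) and for IFN epsilon at 100 IU/ml (0.336), where the left-out arrays enter the shared spread. Over settings other than single replicates left out, Stat2 ranged from 2.49 to 2.93 at 1000 IU/ml IFN epsilon and from 2.62 to 2.87 at that dose of IFN beta. The number of arrays, 2 samples in 2 groups and shifts between dates limit what the fit without a block can call.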
